A study of Mus musculus with 2 samples.

Results

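Conventional CD4 T cells were picked out of 2 droplet single-cell RNA-seq libraries of orthotopic KPC pancreatic tumours by the transcripts in each cell. A cell was taken when it held at least 500 genes and at most 15% mitochondrial molecules, at least 2 unique molecular identifiers (UMIs) of Cd3d, Cd3e, Cd3g and Trac together, and at least 1 UMI of Cd4. It also had no UMI of Cd8a, Cd8b1 or Foxp3, at most 2 UMIs of the complement genes C1qa, C1qb and C1qc, and at most 5 of the keratins Krt8, Krt18 and Krt19. This rule gave 326 of 22472 kept cells, 21 of 11664 in the control library and 305 of 10808 in the knockout library.

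Mouse KPC pancreatic cancer cells were implanted into the pancreas and tumours were taken at day 21. The knockout library came from Csf1r-Cre;Porcnfl/fl mice, in which the Csf1r promoter drives Cre and is meant to delete Porcn in macrophages. The control library, labelled WT, came from Porcnfl/fl littermates, whose floxed Porcn alleles both groups share. Tumours of 5 mice were pooled per genotype before loading, so each group was 1 library, and the spread between mice cannot be seen. Porcn encodes the enzyme that puts a lipid on Wnt proteins so that they can be released, and the study compared tumours with and without this release from macrophages. Porcn had no UMI in conventional CD4 T cells of either library, and in cells marked by C1q genes it had 16 UMIs (4.78 per 1000000 UMIs, written CPM) in control and 4 UMIs (1.27 CPM) in knockout.

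CD4 T cells recognise peptides on MHC class II and leave the thymus as naive cells, which circulate through lymph nodes under Ccr7 and the transcription factors Klf2, Lef1 and Tcf7. After antigen contact they can turn into helper subsets that instruct other cells through cytokines and through surface ligands such as CD40 ligand. Under lasting antigen in tumours they take up inhibitory receptors, among them PD-1, and genes that hold them in tissue.

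No test between genotypes was possible with 1 library per group, and no p-value is given. Levels are CPM over the UMIs of the cells concerned, and ratios between libraries are log2 ratios of knockout over control after adding 1 UMI. Values in parentheses after a level, share or ratio are exact 95% intervals that cover counting error only. Those after a ratio were taken from the raw UMIs without the added 1. They are therefore not centred on the printed ratio, above all where control UMIs are few. The control cells held 83949 UMIs in all and the knockout cells 1315722, so the control value limits nearly every ratio. Depth per cell was close, with medians of 3556 UMIs and 1652 genes in the control library and 3340 UMIs and 1520 genes in the knockout library. Median mitochondrial shares were 2.32% and 1.50%. The 2 libraries shared 38 barcodes among kept cells, and no barcode was a member in both.

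The markers of the gate describe the cells and are no finding. A single Cd4 UMI admitted 9 of the 21 control cells and 161 of the 305 knockout cells. Just outside stood 36 control and 393 knockout cells that failed only for lack of a Cd4 UMI. A further 4 and 88 failed only through Foxp3, 2 and 46 of them with exactly 1 Foxp3 UMI. Members may thus include regulatory cells whose Foxp3 was not caught, and how many was not tested. Another 5 and 27 cells failed only through more than 5 keratin UMIs. T cell genes that the rule did not use were present in all members. The 9 such markers (Cd5, Cd6, Cd28, Cd2, Lat, Icos, Cd40lg, Trbc1 and Trbc2) summed to 3323 CPM in control and 3364 CPM in knockout members, against 8.58 CPM in knockout cells marked by C1q genes. Every member held at least 1 UMI of them in the control library, as did all 305 in the knockout library. Markers of gamma delta T cells were at 0 in all 8 genes in the control cells and came to 14 UMIs in 8 knockout cells.

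Among all kept cells the conventional CD4 T cells were 0.180% (0.112 to 0.275) in the control library. In the knockout library they were 2.82% (2.52 to 3.15), which is 15.7 times the control share (10.1 to 25.7). Among cells with a UMI of Ptprc, the pan-leukocyte gene CD45, their shares were 1.61% (0.971 to 2.50) and 7.89% (7.04 to 8.805), a ratio of 4.905 (3.085 to 8.265). Within T cells of the same gate they were 11.9% (7.54 to 17.7) of 176 control cells and 18.8% (16.9 to 20.8) of 1624 knockout cells, a ratio of 1.57 (1.01 to 2.58). CD8 T cells, defined by a Cd8a or Cd8b1 UMI without Cd4, were 62.5% (54.9 to 69.7) and 43.9% (41.5 to 46.4) of T cells. Foxp3 regulatory T cells were 2.27% (0.623 to 5.72) and 5.42% (4.37 to 6.63). Shares of T cells also follow how often Cd4 is caught, which was not tested.

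Summed over each list, the control cells carried checkpoint genes at a higher level and naive genes at a lower level than the knockout cells. Genes could be compared where the mean CPM of the libraries equalled at least 10 UMIs in the smaller one. Of the 1340 such genes, 21 (1.57%) were at least 2-fold higher and 81 (6.04%) at least 2-fold lower in the knockout library. Together they were 7.61%, and the median log2 ratio was -0.15. A gene could enter on the UMIs of 1 library alone. The added 1 UMI weighs more in the smaller control library, which lowers most ratios. The excess of lower genes and the negative median are thus partly built in, and no direction is read from them. In the naive and central memory list 9 of 18 genes could be compared, of which 3 were at least 2-fold higher and none 2-fold lower, with a median of 0.52. In the checkpoint and exhaustion list 7 of 15 could be compared, of which 4 were at least 2-fold lower and none 2-fold higher, with a median of -1.30. These list counts and medians passed through the same filter and the same added UMI. Summed over all its genes, without that filter, the naive list had 1715 CPM in control and 3106 CPM in knockout cells. The checkpoint list had 3943 and 2150 CPM. The checkpoint difference depended on the keratin limit. Without it, 5 more control and 27 more knockout cells entered, and the checkpoint median was -0.19 and the naive median 0.84. The log2 ratios were then 1.94 for Klf2, -0.33 for Pdcd1, -0.46 for Cxcr6 and 0.02 for Tox.

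**Figure D1:**
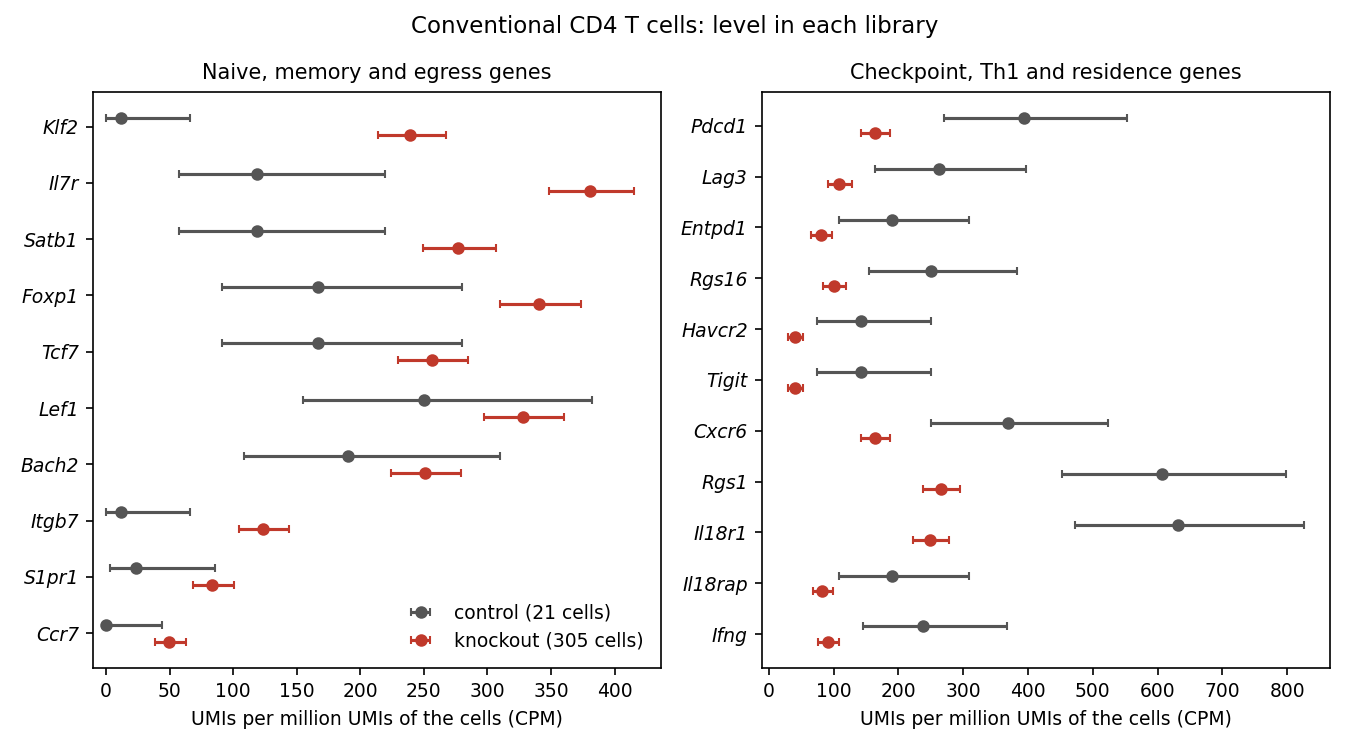
Level of naive, memory and egress genes (left) and of checkpoint, Th1 and residence genes (right) in conventional CD4 T cells, in CPM on a linear axis. Points are the 21 control cells (grey) and the 305 knockout cells (red) summed, and bars are exact 95% counting intervals. Klf2 stood at 11.9 CPM in control and 239 CPM in knockout cells, Pdcd1 at 393 and 164 CPM.

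Klf2 (ENSMUSG00000055148, chromosome 8), the transcription factor that keeps the egress receptor S1pr1 on in resting T cells, had 1 UMI in 1 of 21 control cells. It had 315 UMIs in 116 of 305 knockout cells. These are 11.9 CPM (0.302 to 66.4) and 239 CPM (214 to 267), a log2 ratio of 3.33 (1.84 to 9.64), and the counting intervals of the levels did not overlap. After thinning each cell to 1000 UMIs, Klf2 was seen in 0 of 21 control cells, where a count of 0 allows up to 14.3% taken as 3 of 21 cells and 16.1% by the exact interval, and in 22.3% (17.75 to 27.4) of knockout cells. Without thinning the shares were 4.76% and 38.0%. Cells marked by C1q genes, which are macrophages and can use Klf2 themselves, gave 10.3% and 13.0% after thinning, and 34.3% and 41.3% without it, at median depths of 5580 and 6246 UMIs.

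Other genes of resting T cells stood on the same side. Il7r, the receptor chain for the survival cytokine IL-7, had 10 UMIs in 6 control cells and 501 in 164 knockout cells, or 119 CPM (57.1 to 219) and 381 CPM (348 to 416). Its log2 ratio was 1.54 (0.79 to 2.75). Satb1, a chromatin organiser of T cells, had 119 CPM in control and 277 CPM in knockout cells, a log2 ratio of 1.08 (0.32 to 2.29). Foxp1, which holds naive T cells quiescent, had 167 and 341 CPM, a log2 ratio of 0.93 (0.27 to 1.91). After thinning, Il7r was seen in 14.3% of control and 28.2% of knockout cells, and Foxp1 in 14.3% and 25.25%. Satb1 lay close there, in 19.05% and 20.98%. The Wnt-responsive factors Lef1 and Tcf7 lay closer together. Lef1 had 250 CPM (155 to 382) for control and 328 CPM (297 to 360) for knockout cells, and Tcf7 had 167 CPM (91.2 to 280) and 256 CPM (229.5 to 285). Both intervals overlapped, and Lef1 turned to a log2 ratio of -0.18 when cells with markers of other lineages were left out. Bach2, Foxo1 and Bcl2 had log2 ratios of 0.31, -0.15 and -0.18.

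Homing genes were scarce, and Ccr7 and some genes of other kinds had no UMI in the control cells. Ccr7, the lymph node homing receptor, had 0 control UMIs and 65 UMIs in 38 knockout cells. This is 1.38 times the control floor of 3 counts (35.7 CPM). By the exact interval a control count of 0 allows up to 43.9 CPM, so this fold is no firm lower bound. Klf3, Txk and Dapl1, which are not homing genes, also had no control UMI and 92, 83 and 57 knockout UMIs. With so few control UMIs a count of 0 limits these levels only weakly. Igfbp4 and Actn1 lay the other way without thinning, each in 19.05% of control cells and in 14.75% and 13.4% of knockout cells. After thinning, Igfbp4 was seen in 4.76% and 5.90%, and Actn1 in 9.52% and 5.25%. S1pr1, the receptor for leaving tissue, had 2 control and 110 knockout UMIs, a log2 ratio of 1.24 (-0.08 to 4.88). Itgb7, an integrin chain of gut-homing lymphocytes, had 1 and 162 UMIs, a log2 ratio of 2.38 (0.87 to 8.68).

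On the opposite side stood Pdcd1 (ENSMUSG00000026285, chromosome 1), the gene of the inhibitory receptor PD-1. It had 33 UMIs in 13 of 21 control cells and 216 UMIs in 95 of 305 knockout cells, or 393 CPM (271 to 552) and 164 CPM (143 to 188). The log2 ratio was -1.30 (-1.79 to -0.68). Lag3, another inhibitory receptor, had 262 CPM (164 to 397) against 109 CPM (91.6 to 128). Entpd1, the ectonucleotidase CD39, had a log2 ratio of -1.32 (-2.01 to -0.38) and Rgs16, a brake on G protein signalling, of -1.37 (-1.99 to -0.58). The shares of Entpd1 after thinning to 1000 UMIs lay close, at 9.52% (1.18 to 30.4) of control and 8.53% (5.64 to 12.2) of knockout cells. Tox, the factor of exhausted T cells, was the most widely detected of the list, with 1608 CPM (1348 to 1903) for the control library and 857 CPM (807 to 908) for the knockout library, a log2 ratio of -0.92 that turned to 0.02 without the keratin limit. Thinned to 1000 UMIs, Tox was seen in 76.2% (52.8 to 91.8) and 40.0% (34.5 to 45.7) of cells, and unthinned in 90.5% and 66.2%. Cells marked by C1q genes held Tox in 0.301% of knockout cells after thinning.

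Ctla4 had 417 CPM (290 to 580) and 414 CPM (380 to 451), a log2 ratio of -0.05 (-0.50 to 0.53). This value moved to -1.10 without cells holding Il2ra or Ikzf2 and to 0.92 without the keratin limit. Cd200 had a log2 ratio of -0.56 (-1.28 to 0.48). Havcr2 and Tigit, which encode the inhibitory receptors TIM-3 and TIGIT, were too low to enter the comparison. Each had 12 control and 53 knockout UMIs, a log2 ratio of -1.92 (-2.75 to -0.79). After thinning, Havcr2 was seen in 0 of 21 control cells and 1.97% of knockout cells. Its unthinned shares were 23.8% and 9.84%, so no order is read from them. Tox2 had 12 UMIs in 6 control cells and 9 UMIs in 6 knockout cells, a log2 ratio of -4.35 (-5.81 to -3.02). Cd160 and Cd244a, checkpoint genes of cytotoxic cells, had no control UMI. Among the 305 knockout cells Cd160 was seen in 8 and Cd244a in 0, so no difference is read from them.

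In the CD8 T cells of each library the checkpoint values lay nearer to each other. Pdcd1 stood there at 265 CPM in control and 252 CPM in knockout cells, Lag3 at 313 and 222 CPM, and Entpd1 at 183 and 189 CPM. Klf2 in CD8 T cells was 24.3 CPM in control and 94.2 CPM in knockout cells. Whether the differences differ between the CD4 and CD8 cells was not tested.

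**Figure D2:**
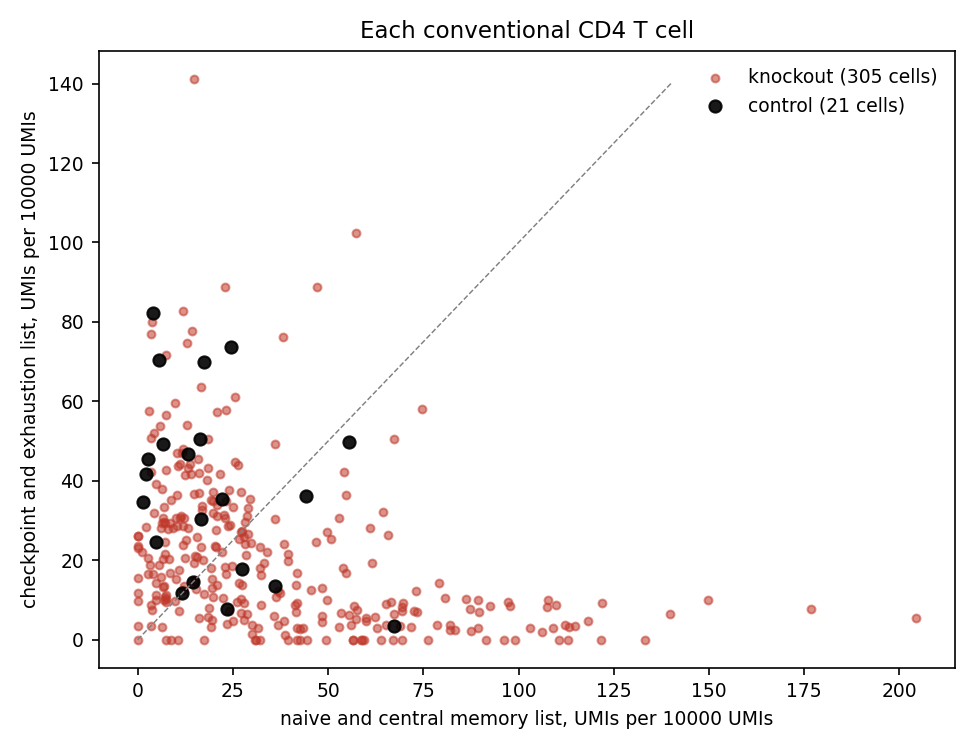
Each conventional CD4 T cell by its UMIs of the naive and central memory list (horizontal axis) and of the checkpoint and exhaustion list (vertical axis), both per 10000 UMIs of the cell. The 21 control cells (black) lie mostly above the dashed line of equal levels, and knockout cells (red) reach 204 on the naive axis, where the highest control cell stands at 67.4.

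Taken cell by cell, the naive list ranged from 1.50 to 67.4 per 10000 UMIs in control cells, with a median of 16.4, and from 0 to 204 in knockout cells, with a median of 25.1. The checkpoint list ranged from 3.55 to 82.2 with a median of 36.2 in control cells, and from 0 to 141 with a median of 15.4 in knockout cells. The ranges overlapped widely, and the plot of each cell shows knockout cells among the control cells as well as far to the right of them. The naive list exceeded the checkpoint list for 6 of the 21 control and 163 of the 305 knockout cells. Klf2 or S1pr1 was caught in 2 of the 21 and in 137 of the 305 cells. Among these 137 knockout cells 20 also held Pdcd1.

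The start regions of 3 of these genes are shown because Klf2 marks the higher side, Pdcd1 and Cxcr6 the lower side, and Wnt signals act on genes through TCF/LEF factors. They are the 250 bases before the RefSeq gene start on GRCm38.p6, 5′ to 3′ on the gene's own strand. Klf2 lies at chr8:72318812-72319061 on the plus strand, Pdcd1 at chr1:94052554-94052803 on the minus strand and Cxcr6 at chr9:123806227-123806476 on the plus strand. Capitals mark a match on either strand to the TCF/LEF core CTTTGA or to the KLF box CCACCC, whose reverse complements are TCAAAG and GGGTGG.
Klf2: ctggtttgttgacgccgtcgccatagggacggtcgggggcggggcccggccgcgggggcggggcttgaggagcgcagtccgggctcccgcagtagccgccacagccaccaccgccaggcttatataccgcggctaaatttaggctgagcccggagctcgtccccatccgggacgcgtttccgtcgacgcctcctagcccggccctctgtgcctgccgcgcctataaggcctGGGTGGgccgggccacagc
Pdcd1: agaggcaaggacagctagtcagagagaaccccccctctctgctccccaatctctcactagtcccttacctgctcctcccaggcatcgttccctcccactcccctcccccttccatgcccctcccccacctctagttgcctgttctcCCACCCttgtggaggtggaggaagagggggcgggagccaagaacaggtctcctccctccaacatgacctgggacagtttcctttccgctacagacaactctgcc
Cxcr6: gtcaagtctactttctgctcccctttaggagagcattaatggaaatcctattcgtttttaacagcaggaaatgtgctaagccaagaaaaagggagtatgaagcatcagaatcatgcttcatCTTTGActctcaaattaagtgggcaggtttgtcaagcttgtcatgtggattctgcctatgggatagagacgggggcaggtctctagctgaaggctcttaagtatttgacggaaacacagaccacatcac
The AP-1 site TGANTCA was also searched and matched none of them. The last bases of the Klf2 window, its KLF box among them, lie inside the GENCODE M21 gene, which starts at 72319033. Klf2 and Pdcd1 held 1 KLF box each, and Cxcr6 held 1 TCF/LEF core. Over 32851 promoters of the same length, 13.8% held the TCF/LEF core, 6.75% the AP-1 site and 28.1% the KLF box, so single matches of this kind are common. These are matches of letters and say nothing of binding.

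By summed level, Ifng, the IL-18 receptor chains, Cxcr6 and Rgs1 were also lower in the knockout cells. The Th1 and tissue residence lists were split. Of 15 Th1 genes 7 could be compared, of which 3 were at least 2-fold lower and none 2-fold higher, and 3 lay above 0 and 4 below, with a median of -0.94. That median turned to 0.19 without cells holding Il2ra or Ikzf2, to 0.08 with a minimum of 20 UMIs and to 0.03 without the keratin limit. Ifng, the defining Th1 cytokine, had 20 UMIs in 6 control cells and 120 UMIs in 52 knockout cells, or 238 CPM (146 to 368) and 91.2 CPM (75.6 to 109). Il18r1 and Il18rap, the chains of the IL-18 receptor, had log2 ratios of -1.36 (-1.76 to -0.89) and -1.28 (-1.97 to -0.34). After thinning to 1000 UMIs, Il18r1 was seen in 38.1% of control and 21.97% of knockout cells. Il18rap ran the other way there, in 0 of 21 control cells and 7.87% of knockout cells. The unthinned shares of Il18rap were 42.9% and 22.95%, so no order is read from its shares. Stat4 and Id2 had log2 ratios of 0.10 and 0.25. Tbx21, the master factor of Th1 cells, was too low to be compared, with 12 control and 100 knockout UMIs and a log2 ratio of -1.01 (-1.78 to 0.09).

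Of 15 tissue residence genes 4 could be compared, with 2 above and 2 below 0 and a median of -0.51, which turned to 0.34 without the keratin limit. Cxcr6, a receptor that holds T cells in tumours, had 369 CPM (251 to 524) among control and 164 CPM (143 to 188) among knockout cells, a log2 ratio of -1.21 (-1.72 to -0.58). Its share of cells after thinning ran the other way, with 9.52% and 15.7%, while the unthinned shares were 52.4% and 32.8%, so no order is read from it. Rgs1, a brake on chemokine signalling in resident T cells, had 608 CPM (452 to 799) and 265 CPM (238 to 295). Itga4 and Cd9 had log2 ratios of 0.19 and 0.43, and Itgae, the integrin of epithelial residence, had 0 control and 20 knockout UMIs.

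**Figure D3:**
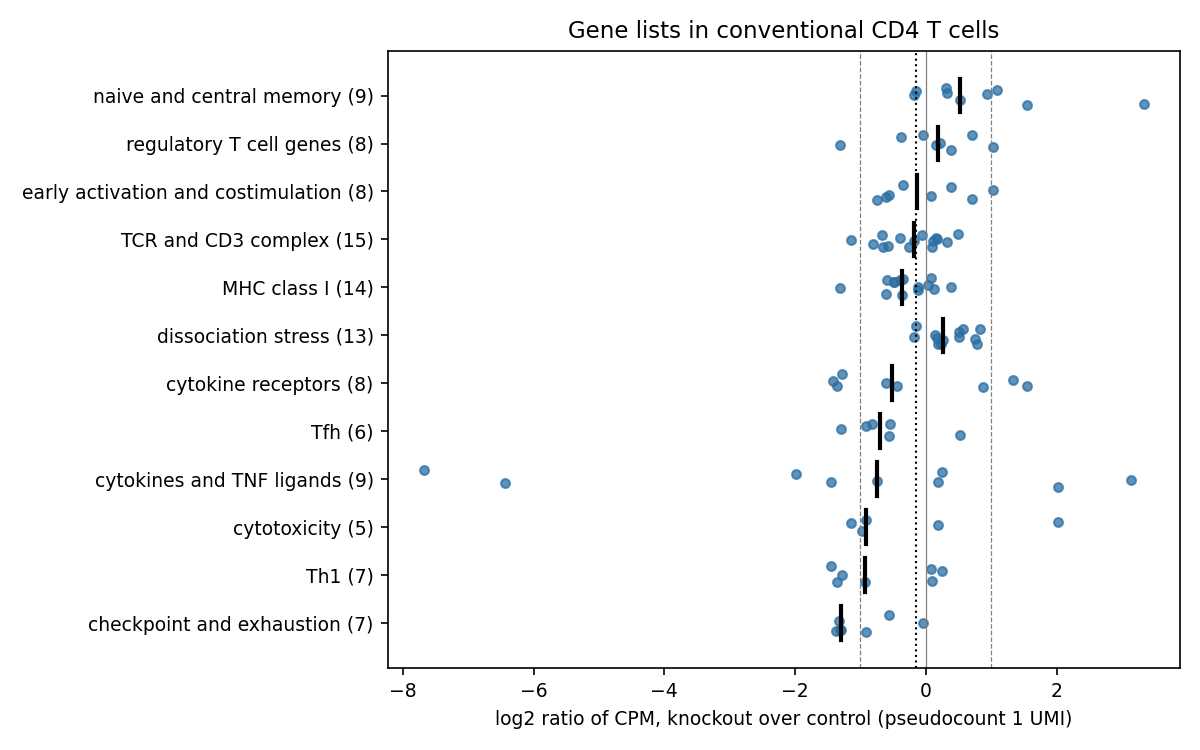
Log2 ratio of CPM, knockout over control, for the genes of 12 lists in conventional CD4 T cells; points are genes, black bars list medians, and the number of genes compared stands behind each name. The dotted line is the median of all genes compared (-0.15), dashed lines mark 2-fold, and the checkpoint list (median -1.30) and the naive list (0.52) lie at the ends.

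Defining genes of the other helper programmes were scarce. Of the Th17 list only Rora, Batf and Stat3 could be compared, and Il17a, Il17f and Il22 had no UMI in any member. Of the Tfh list 6 genes could be compared, with a median of -0.69 (0.08 without the keratin limit), and 1 of them, Pdcd1, was past 2-fold. The list summed to 3538 CPM in control and 2134 CPM in knockout cells. The factor Maf, which drives IL-21, had a log2 ratio of -0.83 (-1.27 to -0.29), which turned to 0.13 without the keratin limit. Bcl6 and Cxcr5, which define follicular helper cells, had 1 and 0 control UMIs and 84 and 22 knockout UMIs. The log2 ratio of Bcl6 was 1.44 (-0.10 to 7.74). Il21 had 6 UMIs in 4 control cells and 28 UMIs in 20 knockout cells.

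The Th2 cytokines came from 1 cell. Il4 and Il13 had 38 and 21 UMIs in the control library, all of them in a single cell, and 2 and 3 UMIs in the knockout library. Gata3, the Th2 master factor, had 95.3 CPM (41.1 to 188) and 81.3 CPM (66.6 to 98.3), with overlapping intervals, and Il5 had no UMI.

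Several other genes at the top of the rule for named genes also rested on single cells. In the knockout library 1 cell held 4563 of 5584 UMIs of the antibody gene Igkc, 356 of 363 of Iglv1 and 639 of 706 of Jchain, which are genes of plasma cells. Another held 422 of 424 UMIs of S100a8 and 636 of 640 of S100a9, which are genes of neutrophils. Marker lists of other cell types, with the genes of the rule left out, were partly in single cells and partly spread. Plasma cell markers came to 12 UMIs in control and 6817 in knockout members, and 11 of 21 control and 214 of 305 knockout cells had at least 1. Neutrophil markers came to 27 and 1253 UMIs, 1080 of the latter in 1 cell. Dendritic cell markers came to 6 UMIs in 6 control cells and 514 in 152 knockout cells. Macrophage markers came to 2 UMIs in 2 and 118 in 52 cells, and fibroblast markers to 13 and 493, with 416 in 1 knockout cell. All 11 B cell markers were at 0 in the control cells and came to 261 UMIs in 57 knockout cells. When cells with 2 or more UMIs of another lineage's markers were left out, not counting widely seen ones such as Igkc and Lyz2, 13 control and 196 knockout cells remained. The log2 ratios there were 2.75 for Klf2, 1.70 for Il7r, -1.34 for Pdcd1, -1.15 for Lag3 and -1.06 for Cxcr6. The medians there were 0.28 for the naive list, -0.99 for the checkpoint list and -0.29 for the Th1 list.

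Among the other named genes, Ccl5, a chemokine of effector T cells, had 11 UMIs in 4 control cells and 765 UMIs in 92 knockout cells, a log2 ratio of 2.03 (1.30 to 3.16), or 0.70 without cells holding Il2ra or Ikzf2. Slc25a5, a mitochondrial ADP/ATP carrier, had 4 and 285 UMIs, a log2 ratio of 1.87 (0.81 to 4.07), or 0.65 without the keratin limit. Ccl1, the ligand of Ccr8, had 2 control UMIs and 414 UMIs in 16 knockout cells, and 1 of these held 105. Its log2 ratio was 3.14 (1.86 to 6.77), which turned to -0.13 without the keratin limit. Ifngr1, a chain of the interferon gamma receptor, stood at 131 CPM (65.4 to 234.5) and 359.5 CPM (328 to 393). Pim1, a survival kinase, had a log2 ratio of 1.47 (0.49 to 3.37), which turned to -0.15 without cells holding Il2ra or Ikzf2.

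On the lower side, Baz1a, a chromatin remodelling subunit, had 52 UMIs in 12 control cells and 244 UMIs in 117 knockout cells, a log2 ratio of -1.76 (-2.18 to -1.28). Nrgn and Ptpn13 had 24 and 17 UMIs in 9 control cells each, with log2 ratios of -2.21 and -2.05. Lta, the gene of lymphotoxin alpha, had 17 UMIs in 6 control cells and 70 UMIs in 44 knockout cells, a log2 ratio of -1.99 (-2.71 to -1.07). Penk, which encodes a precursor of enkephalins, had 137 control UMIs, 100 of them in 1 cell, and a log2 ratio of -3.14, or -0.26 without cells holding Il2ra or Ikzf2. Stfa3, Pde10a and Ralyl were seen in 2 or 3 control cells.

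Cytotoxicity genes did not lie on 1 side. Of 18 such genes 5 could be compared, with Ccl5 at least 2-fold higher, Cst7 at least 2-fold lower and a median of -0.91, which turned to 0.17 without the keratin limit and 0.19 with a minimum of 20 UMIs. Nkg7, a granule protein of killer cells, had 989 CPM and 531 CPM. Gzmb, the gene of granzyme B, had no control UMI and 126 UMIs in 26 knockout cells. This is 2.68 times the control floor, which is no firm lower bound. The T cell receptor and CD3 list lay close to all genes, with a median of -0.18 over 15 genes (0.58 without the keratin limit) and Lcp2, an adaptor of receptor signalling, at -1.15.

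Genes shared with regulatory T cells lay close between the libraries. Of 18 such genes 8 could be compared, with Tnfrsf9 higher and Entpd1 lower by at least 2-fold and a median of 0.19. Ikzf2, the gene of Helios, had 477 CPM (340 to 649) for control and 567 CPM (527 to 609) for knockout cells. A UMI of Il2ra or Ikzf2 was found in 11 of 21 control and 144 of 305 knockout members. Leaving these cells out kept 10 and 161 cells, with log2 ratios of 3.57 for Klf2, -2.11 for Pdcd1 and -2.59 for Lag3. Tnfrsf9 turned to -0.56 and Tnfrsf4 to -0.50 there.

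Compared genes of the MHC class I, interferon gamma and Wnt target lists lay within 2-fold with 1 exception. Of the MHC class I list 14 genes could be compared, with a median of -0.36, and Nlrc5, its transcriptional activator, was the 1 gene past 2-fold, at -1.32 (-1.87 to -0.61). The interferon gamma list had 7 genes with a median of -0.39, which turned above 0 under 4 alternatives, up to 0.44. Of the Wnt target list 4 genes could be compared, Lef1, Tcf7, Cd44 and Ccnd2, with a median of -0.02 and none past 2-fold. Of 26 Wnt receptor and pathway genes 3 could be compared, with a median of 0.005, among them Wls, the carrier of Wnt proteins. Dissociation stress genes, a sign of handling, had a median of 0.26 over 13 genes, of which 11 were above 0 and none past 2-fold (-0.18 without cells holding Il2ra or Ikzf2). They thus lay on the same side as the naive genes, and their part in the naive values was not tested.

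Clustering the 326 cells of both libraries together gave 6 groups. They are described by number only, since the genes that define them also differ between the libraries, and their sizes are not compared. Group 1 (11 control and 73 knockout cells) held Tnfsf8, the CD30 ligand, at 753 CPM, with Tnfsf11, Pdcd1, Slamf6 and Tox. Group 2 (1 and 62 cells) held Il7r at 758 CPM and Klf2 at 461 CPM, and it held the cell with most of the Igkc UMIs. Group 3 (7 and 52 cells) held Nkg7 at 1637 CPM and Cxcr6 at 460 CPM, with Ccl4, Klrd1 and Ifng.

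Group 4 (2 and 45 cells) held Ikzf2 at 2776 CPM and Ctla4 at 1220 CPM, with Izumo1r, Tnfrsf9 and Gzmb, genes also found in regulatory T cells. Ctla4 was seen in 85.1% and Il2ra in 57.45% of its cells. Whether regulatory cells with no Foxp3 UMI caught are among them was not tested. Group 5 (0 and 61 cells) held Lef1 at 1344 CPM and Klf2 at 767 CPM, with Dapl1 and Igfbp4. Group 6 (0 and 12 cells) was led by histone genes, with Mki67, a gene of dividing cells, in all 12. Groups 5 and 6 came from 1 library and may reflect that library rather than a kind of cell.

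**Figure D4:**
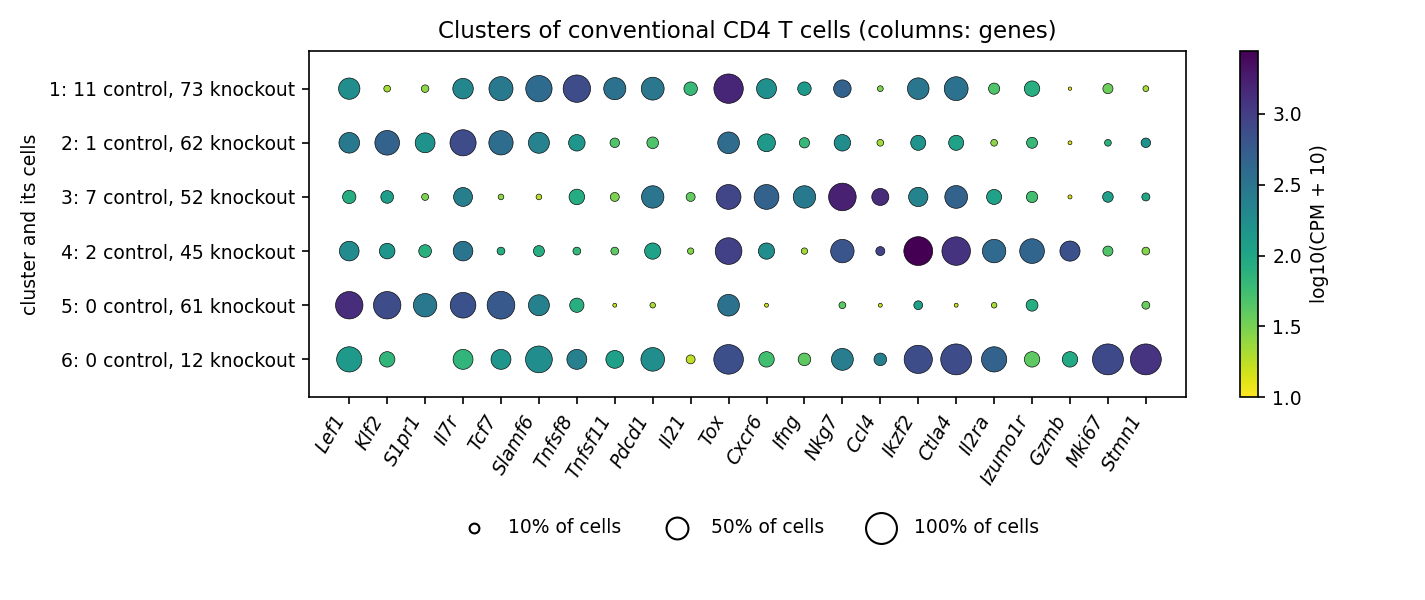
Genes across the 6 groups of conventional CD4 T cells; dot area is the percent of the group's cells with a UMI and colour is log10 of CPM plus 10. Group numbers stand with their control and knockout cells, and Lef1 and Klf2 are darkest in group 5, Tnfsf8 in group 1, Nkg7 in group 3 and Ikzf2 in group 4.

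Within the knockout library conventional CD4 T cells could be set beside 88 Foxp3 regulatory and 713 CD8 T cells of the same pool. Tnfsf8, Cd40lg and Tnfsf11, ligands of the TNF family by which helper cells speak to other cells, and many naive genes stood higher in them. Against regulatory cells 354 of 6942 genes (5.10%) were at least 2-fold higher in the conventional cells and 360 (5.19%) lower. Against CD8 cells 449 of 9180 (4.89%) were higher and 274 (2.98%) lower. The list of cytokines and TNF ligands had 9 of 18 genes at least 2-fold higher than in regulatory cells, with a median of 1.08, and 6 of 20 higher and 5 lower against CD8 cells, with a median of 0.20. Fasl, the TNF family ligand of cell killing, had 38.0 CPM in conventional and 90.0 CPM in CD8 cells, and Tnf had 56.2 and 50.3 CPM.

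Tnfsf8 stood at 296 CPM (268 to 327) in conventional cells, 1.64 CPM (0.0415 to 9.12) in regulatory cells and 26.4 CPM (21.4 to 32.3) in CD8 cells. Cd40lg, which licenses dendritic cells and B cells, had 85.1 CPM (70.1 to 102), 6.55 CPM (1.79 to 16.8) and 1.39 CPM (0.451 to 3.24). Tnfsf11, the ligand RANKL, had 130 CPM (111 to 151), 14.7 and 14.7 CPM. For each of these 3 ligands the intervals of conventional cells lay apart from those of both other classes. In the control library the conventional cells held Tnfsf8 at 488 CPM and Cd40lg at 83.4 CPM, and the 4 control regulatory cells held neither. Those 4 cells held 19130 UMIs in all, where a count of 0 allows up to 193 CPM. No difference in Cd40lg is therefore read from them.

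**Figure D5:**
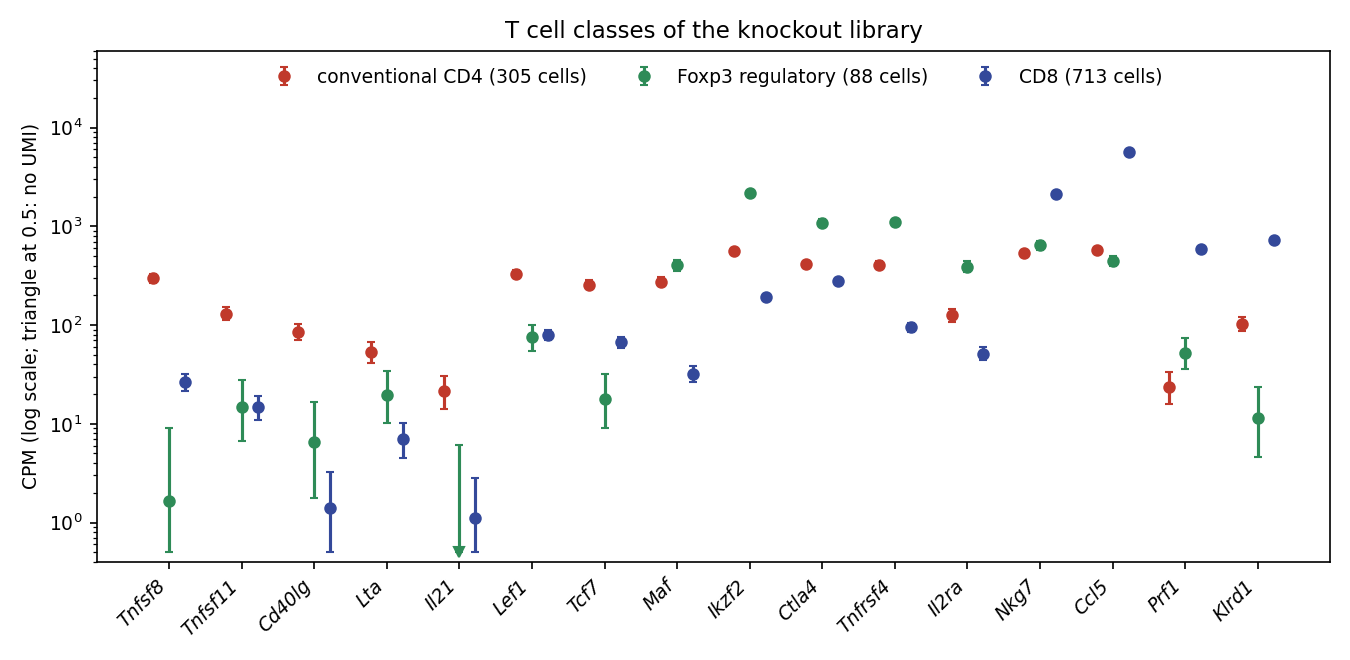
Level of 16 genes in conventional CD4 (red), Foxp3 regulatory (green) and CD8 (blue) T cells of the knockout library, in CPM on a log axis with exact 95% counting intervals. Tnfsf8, Tnfsf11 and Cd40lg stand highest in conventional cells, Ikzf2 and Tnfrsf4 in regulatory cells, and Ccl5 and Prf1 in CD8 cells. Intervals are cut at 0.5, where a triangle marks a gene with no UMI.

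Of 18 naive genes 13 were at least 2-fold higher than in regulatory cells and none lower, with a median of 2.03, and 7 were higher than in CD8 cells, with a median of 0.77. Tcf7 had 256 CPM (229.5 to 285), against 18.01 CPM (8.99 to 32.2) in regulatory and 66.9 CPM (58.8 to 75.9) in CD8 cells. Lef1 had 328, 75.3 and 79.4 CPM.

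Most regulatory genes lay lower than in the Foxp3 cells. Of 16 such genes 11 were at least 2-fold lower and 1 higher than in the regulatory cells, with a median of -1.24. Against CD8 cells 6 of 15 were at least 2-fold higher and 2 lower, with a median of 0.77. Ikzf2 had 567 CPM (527 to 609) against 2175 CPM (2059 to 2295) there and 192 CPM (178 to 207) in CD8 cells. Of 17 cytotoxicity genes all 17 were at least 2-fold lower than in CD8 cells, with a median of -2.82. Prf1, the gene of perforin, had 23.6 CPM (16.0 to 33.4) against 588 CPM (564 to 614), and Gzmd, Gzme, Gzmf and Gzmg had no UMI in the 305 conventional cells. Of 13 Tfh genes 10 were at least 2-fold higher than in CD8 cells, among them Maf at 274 and 32.2 CPM. The proliferation list was lower than in regulatory cells in 17 of 24 genes by at least 2-fold. Median depth in this library was 3340 UMIs in conventional, 4710 in regulatory and 4229 in CD8 cells. Whether depth, through the catching of Foxp3, sorts dividing cells between the classes was not tested.

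T cell receptor beta chains are built on 1 of 2 constant genes, so the mix of Trbc1 and Trbc2 reflects the make-up of clones. Trbc1 gave 51.1% of the Trbc UMIs in control members and 29.7% in knockout members, against 30.5% in knockout CD8 cells and 34.4% in control CD8 cells. Of the 21 control cells 1 held only Trbc1, 8 only Trbc2, 8 both and 4 neither. The 2 genes are near-identical copies whose reads the counting could have split, and 114 of 305 knockout cells held UMIs of both, so the mix is uncertain. The log2 ratio of Trbc1 turned from -0.81 to 0.34 without mixed cells and to 0.29 without the keratin limit. Variable segments were caught too rarely to follow clones, with a Trbv UMI in 10 of 21 and 67 of 305 cells.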

How the data were processed

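Single-cell suspensions of tumours pooled from 5 mice per genotype were profiled with 10x Genomics 3' v3.1 chemistry. The authors deposited whole-number UMI counts per gene and barcode. Per the file headers the matrices were written by Cell Ranger 8.0.0, while the submitters' processing notes name Cell Ranger 3.1.3 and the mm10 genome; which version made the counts is not settled here. The libraries held 13766 (control) and 12251 (knockout) barcodes, of which 84.7% and 88.2% passed the cell filter.

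Counts of the members were summed per library and gene, and no count model was fitted because each group had 1 library. Intervals are exact Poisson, exact binomial (Clopper-Pearson) or exact conditional ones at 95%. The genes of the gating rule were left out of all gene comparisons. The genes named across libraries are the 10 with the highest lower bound and the 10 with the lowest upper bound of the log2 ratio, among genes whose CPM reached at least 0.5 of that over all kept cells. Genes of the fixed lists are given by value beside them. Shares of cells with a UMI were computed after thinning to 1000 UMIs. Scrublet, at an expected rate of 0.08, called 148 control (1.27%) and 341 knockout cells (3.15%) doublets, among them 0 and 4 members; these were kept, and removed in an alternative.

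Groups of cells came from Leiden clustering (1000 variable genes without the rule's genes, 15 components, 10 neighbours, resolution 0.6). Of 32285 gene identifiers 32158 were found in GENCODE M21, build GRCm38. Scripts used Python 3.11.15, scipy 1.17.1 and scanpy 1.11.5. Only the calculation of ratios from summed counts was tested on simulated data, which held no differences between single cells. The members, gene lists and rules were chosen with earlier results of these data known. Some genes of the lists are not reported here.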

Additional observations from a re-analysis of the deposited data

How the results depend on the processing

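No paired analysis was possible because each genotype had 1 library. Among 158 alternative values of the shares, gene counts and list summaries that answer a comparison, 147 stayed within the range the main value allows and 11 moved. The range allowed is wide for list medians: 8 of the 147 changed sign. The medians of early activation (0.04 without each gene's top cell, 0.81 without the keratin limit), Th1, Tfh and cytotoxicity are those concerned. A turn was counted only for ratios of shares and for medians past 2-fold, here the checkpoint list alone. The 0 turns counted therefore say little of stability. The median of all genes turned to 0.04 without each gene's top cell. Among 780 values of single genes 33 changed sign, and 19 of these had been past 2-fold. The share of kept cells, 15.7 times higher in knockout, was 4.905 times higher among cells with a Ptprc UMI. The count of genes at least 2-fold higher (21) became 9 without mixed cells, 10 without cells holding Il2ra or Ikzf2, 68 with a minimum of 5 UMIs and 8 with a minimum of 20. The count at least 2-fold lower (81) became 290 and 24 with those minimums. Alternatives chosen after seeing the data left out each gene's top cell (40 higher, 44 lower), dropped the keratin limit (136 higher, 282 lower), or left out cells over 20000 UMIs or shared barcodes. The first removes 1 of 21 control but 1 of 305 knockout cells for each gene. Reversed log2 ratios were -2.33 for S100a8 and -3.59 for S100a9 without Scrublet doublets; -3.82 for S100a8, -3.40 for S100a9, -1.24 for Iglv1 and -0.24 for Jchain without mixed cells; and -4.15 for S100a8, -4.15 for S100a9, -3.15 for Iglv1, -1.93 for Jchain, -0.56 for Tnfrsf9 and -0.15 for Pim1 without Il2ra or Ikzf2 cells. Without the top cell they were -2.50 for S100a8, -3.30 for S100a9, -1.07 for Iglv1 and 0.40 for Il1r2. Without the keratin limit they were -0.80 for Igkc and -0.13 for Ccl1, and without the deepest cell 0.34 for Pde10a. Beyond the single cells named in the report, the cause was not tested. Klf2, Il7r, Pdcd1, Lag3, Cxcr6 and Ifng kept their direction under all 13 alternatives, with Klf2 between 1.94 and 4.21 and Pdcd1 between -2.11 and -0.33. The 83949 UMIs of the 21 control cells limit every comparison between libraries.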
